A study of Mus musculus with 3 samples.

Results

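Myeloid C-type lectin receptors are surface proteins with which phagocytes bind sugars and lipids on microbes, crystals and dead cells. The genes described here were taken by name from the columns of the count table: Clec4a1, Clec4a2, Clec4a3, Clec4b1, Clec4n, Clec4d, Clec4e, Clec12a and Cd207, which are 9 of the 10 listed genes and of 32886 genes in all. Clec7a was not analysed here. The data are droplet-based single-cell RNA sequencing of CD45+ immune cells sorted from 3 dissected kidney compartments, the cortex, the outer medulla (OM below) and the inner medulla (IM below), of wt C57BL/6J mice that were male, 10 weeks old and untreated. Every compartment was processed at 3 facilities (Aachen, Bonn and Hamburg), which gives 9 libraries, and the authors' table places 20266 cells in 23 clusters. The facility was the replicate. The number of mice behind each library is not given in the sources used here, so p-values measure the spread between the libraries of the 3 facilities.

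Receptors of this family signal in opposite ways. Clec4a2 (DCIR) and Clec12a (MICL) carry an inhibitory motif in their cytoplasmic tail and recruit phosphatases, whereas Clec4n (Dectin-2), Clec4d (MCL), Clec4e (Mincle) and Clec4b1 (DCAR) have no long signalling tail and couple to the Fc receptor gamma chain Fcer1g, from which Syk and Card9 drive cytokine genes. Cd207 (langerin) is an endocytic lectin that forms the Birbeck granules of epidermal Langerhans cells.

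Libraries held 621 to 3677 cells and 2122809 to 15267126 unique molecular identifiers (UMIs, one per captured transcript). The median UMIs per cell ranged from 744 to 1270 for the libraries from Aachen, from 3210 to 3505 for those from Bonn and from 2802 to 3067 for those from Hamburg. Of 20042 distinct cell barcodes, 219 occurred in 2 or more libraries. Resident macrophages are taken as the clusters Macrophage_1, Macrophage_2, Macrophage_3 and Isg+_Macrophage (5367 cells). The complement genes C1qa, C1qb and C1qc, which mark resident macrophages, together reached 141.5 to 208.5 UMIs per 10000 in their 9 libraries, against 0.0924 to 0.434 for 7 neutrophil markers. The same 3 genes were at 0.309 to 15.1 UMIs per 10000 in T and B cells and at 1.40 to 66.1 in the neutrophils of 6 libraries, and the part of such macrophage RNA in the receptor levels of neutrophils was not tested. Levels are given as CPM, the UMIs of a gene per 1000000 UMIs of the cells summed. Since 10x libraries count one tag per transcript, CPM was compared between genes without a correction for length.

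All 9 genes lie on chromosome 6 (GRCm38.p6 coordinates). The 7 Clec4 genes occupy 368 kb between positions 122921848 and 123289871, in the order Clec4a1, Clec4a3, Clec4b1, Clec4a2, Clec4n, Clec4d and Clec4e. Cd207 (83671207 to 83677857) and Clec12a (129349783 to 129365303) lie outside this cluster. Each is annotated as a protein-coding gene. The promoters below, from RefSeq on the GRCm38.p6 build, are shown because the data put them in pairs: Clec4a1 and Clec4a3 had nearly the same pattern over the immune clusters, and the neighbours Clec4d and Clec4e were both highest in neutrophils. Each run gives the 250 bases before the start of the gene in its own direction, and capitals mark GAGGAA (or TTCCTC on the other strand), the core letters bound by the myeloid factor PU.1.
Clec4a1 (chr6:122921598-122921847, plus strand): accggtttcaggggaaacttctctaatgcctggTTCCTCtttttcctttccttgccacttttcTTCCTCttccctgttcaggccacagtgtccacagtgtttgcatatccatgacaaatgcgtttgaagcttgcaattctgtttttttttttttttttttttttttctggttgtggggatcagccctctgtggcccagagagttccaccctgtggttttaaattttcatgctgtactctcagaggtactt
Clec4a3 (chr6:122952265-122952514, plus strand): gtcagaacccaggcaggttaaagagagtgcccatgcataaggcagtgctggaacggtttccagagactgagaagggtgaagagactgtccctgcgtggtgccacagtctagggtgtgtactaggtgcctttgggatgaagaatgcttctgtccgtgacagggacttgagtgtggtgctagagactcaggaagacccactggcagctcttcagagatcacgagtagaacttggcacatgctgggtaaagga
Clec4d (chr6:123261857-123262106, plus strand): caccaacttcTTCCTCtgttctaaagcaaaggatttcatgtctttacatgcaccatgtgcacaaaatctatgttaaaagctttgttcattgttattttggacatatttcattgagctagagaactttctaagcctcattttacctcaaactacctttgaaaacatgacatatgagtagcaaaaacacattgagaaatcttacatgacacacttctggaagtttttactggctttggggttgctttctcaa
Clec4e (chr6:123289872-123290121, minus strand): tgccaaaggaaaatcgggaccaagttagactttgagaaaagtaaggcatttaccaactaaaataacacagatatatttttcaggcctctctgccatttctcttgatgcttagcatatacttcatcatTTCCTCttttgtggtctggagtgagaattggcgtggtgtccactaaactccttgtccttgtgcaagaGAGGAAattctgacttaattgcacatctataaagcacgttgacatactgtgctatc
RefSeq windows were matched for 8 of the 9 genes and not for Clec4n. Windows inside a gene were left out, namely the window of Clec12a and a second one of Clec4a3, which leaves 7 genes. GAGGAA was found on either strand in the windows of 5 of these 7 genes, the exceptions being Clec4a2 and Clec4a3, and in 23.3% of all 32851 promoter windows of the same length. TGTGGT, the RUNX letters, was in 3 of the 7 genes and in 4614 of all windows, and TGANTCA (AP-1) in 1 of the 7 and 6.75%. TTGCNNAA (C/EBP) was in 1 of the 7 genes and TATAAA in 2, against 9.56% and 12.4% of all windows. Motifs were searched on both strands, and matches of different motifs could overlap. The longest run shared by Clec4a1 and Clec4a3 was 8 bases, gccacagt, which equals the median of the 21 pairs of windows. The longest of any pair was 12 bases, a run of t in Clec4a1 and Clec4b1. These matches describe letters and not bound sites.

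The genes fell into different cellular patterns. The clusters were made from the expression of the same cells, so their levels are a description without a test, and neighbours in the order are called separate only where their ranges over the facilities did not overlap.

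**Figure D1:**
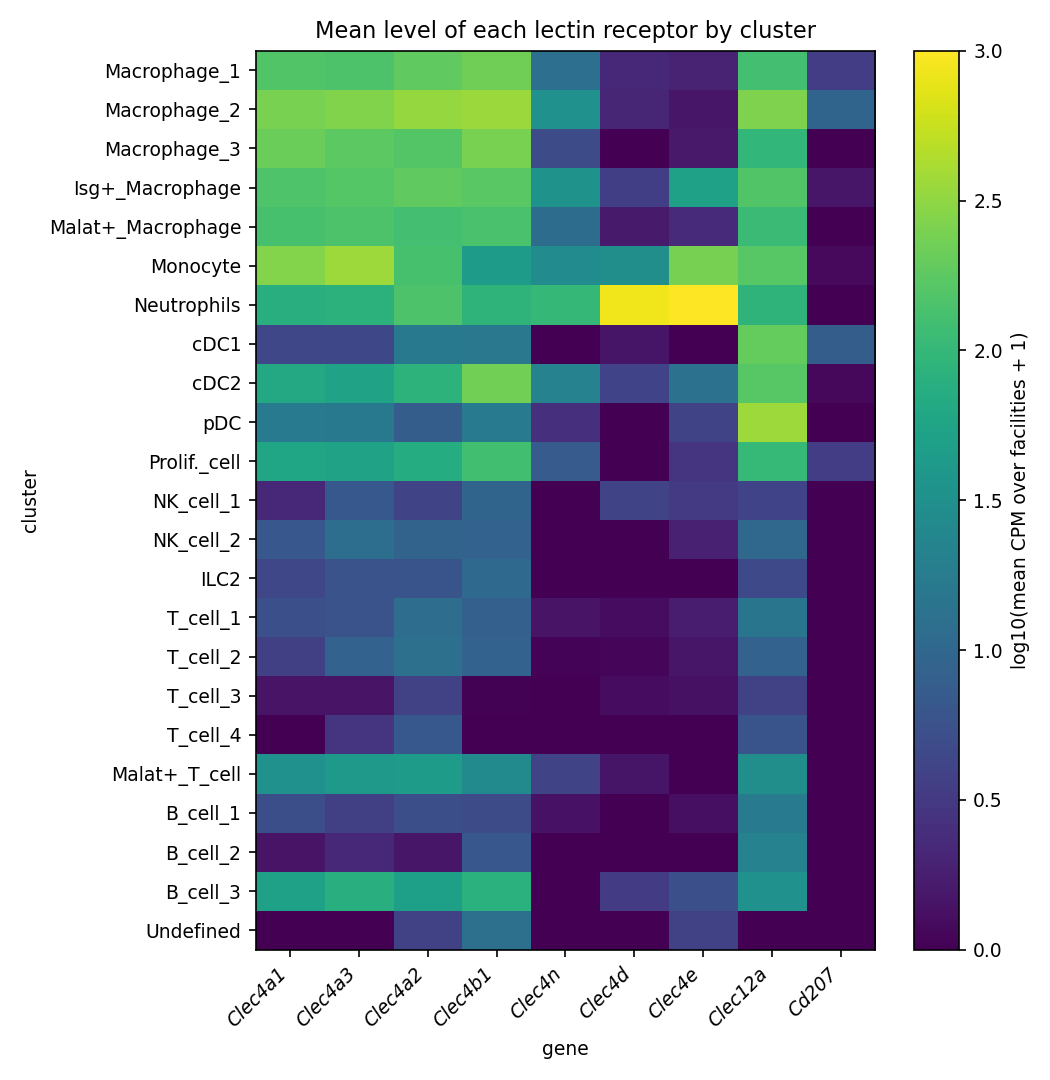
Mean CPM over the facilities for each of the 9 genes (columns) in each cluster (rows), drawn as log10(CPM + 1). Clec4d and Clec4e peak in neutrophils, Clec4a1 and Clec4a3 in monocytes, Clec4a2 and Clec4b1 in Macrophage_2, Clec12a in pDC, and Cd207 stays under 10 CPM everywhere.

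Clec4d and Clec4e had their highest levels in neutrophils. Neutrophils held 76.5% of all Clec4d UMIs and 45.1% of all Clec4e UMIs, while monocytes, with more cells, held 17.9% and 47.2%. Clec4d in neutrophils was at 1562 CPM in Aachen, 422.0 in Bonn and 598.9 in Hamburg. Monocytes came next with 11.98, 17.2 and 59.2 CPM, and both steps of this order were separate in range. Clec4e stood at 1633, 597.8 and 894.2 CPM in neutrophils and at 227.7, 55.8 and 431.3 CPM in monocytes in the same facilities. Neutrophils were above monocytes in each facility for both genes, and the Aachen neutrophil values rest on 25 cells. In Macrophage_2 the same genes reached at most 1.28 and 0.977 CPM.

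Clec4a1 and Clec4a3, relatives of DCIR, were genes of monocytes and macrophages. Clec4a3 averaged 360.9 ± 98.9 CPM (SD, n = 3 facilities) in monocytes and 271.8 ± 27.3 in Macrophage_2, with overlapping ranges, and Macrophage_2 was separate from the next cluster, Macrophage_3 (174.0 ± 48.9). Clec4a1 averaged 277.8 ± 63.7 CPM in monocytes, 247.0 ± 44.4 in Macrophage_2 and 213.2 ± 28.0 in Macrophage_3. None of the first 8 clusters in the order for Clec4a1 was separate from its neighbour. In cDC2 (type 2 conventional dendritic cells) the averages were 64.3 ± 19.1 CPM for Clec4a1 and 52.9 ± 28.4 for Clec4a3.

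The inhibitory receptor Clec4a2 was highest in Macrophage_2, at 452.9 CPM in Aachen, 254.7 in Bonn and 305.6 in Hamburg. Isg+_Macrophage (183.6 ± 98.2) and Macrophage_1 (182.2 ± 108.2) followed, and their ranges overlapped with it. Clec4b1, the activating neighbour, was also highest in Macrophage_2 (437.6, 353.2 and 276.5 CPM), there separate from Macrophage_3 (247.7 ± 22.3). It differed from Clec4a2 in that cDC2 came close behind with 229.4 ± 72.8 CPM. Reads of these genes can be mistaken for each other: of the 60-base stretches in the last 500 bases of their coding transcripts, 6.91% of those of Clec4a2 also occur in Clec4a4 or Clec4b1, and 7.35% of those of Clec4b1 occur in Clec4a2.

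Clec12a was the most widely spread receptor. It was highest in plasmacytoid dendritic cells (pDC), at 325.0 CPM in Bonn and 395.5 in Hamburg, while Aachen had too few pDC for a value, and pDC were separate from Macrophage_2 (262.2 ± 72.8). Type 1 conventional dendritic cells (cDC1) followed with 193.3 ± 36.7 CPM, monocytes with 165.4 ± 24.5 and cDC2 with 165.3 ± 49.3. Clec4n averaged 32.7 ± 27.2 CPM or less in every cluster except neutrophils, which had 212.9 CPM in Aachen but 29.3 in Bonn and 51.3 in Hamburg. Macrophage_2 had 24.4, 43.8 and 27.3 CPM, and Macrophage_1 had 8.63, 8.31 and 17.8, so that Macrophage_2 was above Macrophage_1 in each facility. No Clec4n UMI was found in cDC1.

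T and B cells, which are not known for most of these receptors, give a level to read as background. Whether it came from free RNA was not tested. Over the 9 libraries their summed level was 0 to 27.3 CPM for Clec4a2, 0 to 1.66 for Clec4n, 0 to 0.613 for Clec4d and 2.92 to 28.2 for Clec12a. The highest Clec4a2 and Clec12a values were those of Aachen IM. Clec12a averaged 16.1 to 31.8 CPM in the B cell clusters and 2.91 to 13.5 in T_cell_1 to T_cell_4. Whether B cells express it was not tested, so its level here may not be background alone. No Cd207 UMI was found in T or B cells.

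Langerin was rare. Of all cells, 48 held a Cd207 UMI, and these cells held 67 UMIs in all, with exactly 1 UMI in 36 cells and 7 in a single cell. Macrophage_2 accounted for 26 of the cells, cDC1 for 13, Macrophage_1 for 5 and Isg+_Macrophage for 1. By compartment (cortex, OM, IM), Macrophage_2 cells with a Cd207 UMI numbered 16, 1 and 9, and cDC1 cells 8, 2 and 3. The other Langerhans cell markers (Epcam, Mfge8 and Cdh1) together stood at 0.0737 to 0.231 UMIs per 10000 in the resident macrophages of the 9 libraries.

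**Figure D2:**
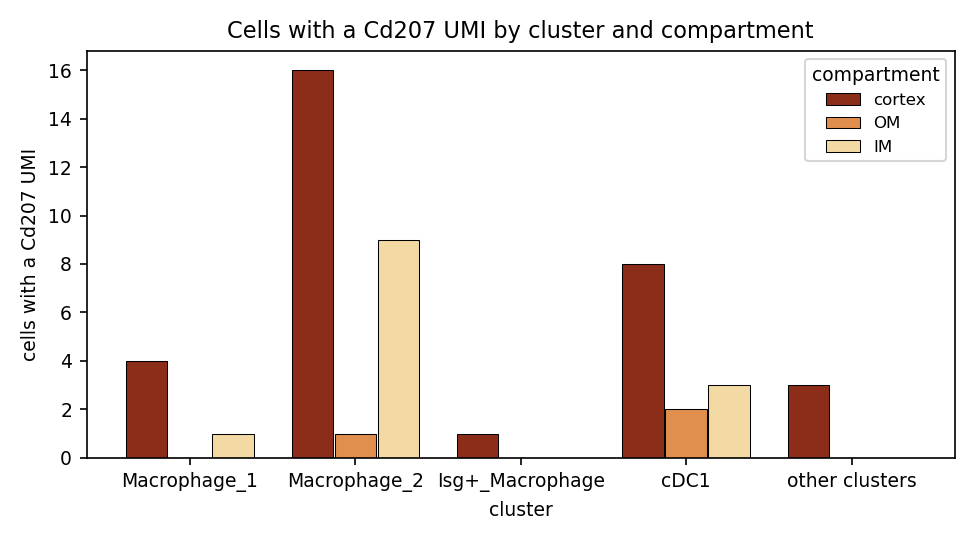
Number of cells with at least 1 Cd207 UMI (y axis) by cluster and compartment, all facilities together. Macrophage_2 has 16 such cells among 701 in the cortex, 1 among 508 in the OM and 9 among 471 in the IM. These numbers are not at equal depth. Bonn gave 449 of the cortex cells, at a median of 4402 UMIs. Aachen gave 364 of the OM and 361 of the IM cells, at medians of 722 and 1013 UMIs.

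The compartments were compared within the resident macrophages, to ask which receptors follow the position of the cell in the kidney. Counts summed per library were fitted in edgeR (quasi-likelihood), the facility entering as a block, and p-values were adjusted by Benjamini-Hochberg over all 8687 genes tested. Fewer receptor-bearing cells and less RNA per cell cannot be told apart in such sums. Clec4d did not pass the filter on low counts, so 8 of the 9 receptors were tested. In the medulla (mean of OM and IM) against the cortex, 3 of the 8 were lower and 0 were higher, where 0.599% of all genes tested were lower. The 3 genes were Cd207, Clec4n and Clec4a2. The receptors were chosen with earlier results of these data known. Their shares beside those of all genes, here and below, are thus a description and no test of the set. Of the 8 log2 differences 7 were negative, with a median of -0.50 against 0.01 over all genes. The calls depended on the fit: edgeR called 0 receptors without the facility block and 0 without the Hamburg libraries, and DESeq2 called 1, Cd207.

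Clec4n, the receptor for fungal mannans, stood in the cortex at 26.4 CPM in Aachen, 44.8 in Bonn and 37.25 in Hamburg. OM libraries had 2.23, 8.78 and 22.8 CPM and IM libraries 22.1, 9.35 and 7.96 CPM in the same order. Every cortex library was above every medulla library. The log2 difference was -1.75 ± 0.36 (SE), with an edgeR adjusted p of 0.0324. Summed over facilities, 137 of 1267 cortex cells had a Clec4n UMI, against 34 of 2603 OM cells and 42 of 1497 IM cells. These sums mix facilities of unequal depth, with 1952 of the 2603 OM cells from Aachen. As means over the facilities the shares were 10.4%, 3.23% and 2.77%, and shares at equal depth are given below.

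Clec4a2 had cortex levels of 517.4 CPM at Aachen, 254.0 at Bonn and 229.8 at Hamburg. Its OM levels were 200.1, 185.5 and 142.3 CPM and its IM levels 405.4, 128.5 and 156.3. Both medullary libraries were below the cortex library within each facility, while the groups overlapped across facilities because the Aachen values were high. The log2 difference was -0.72 ± 0.17 with an edgeR adjusted p of 0.0488, next to the threshold of 0.05.

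Cd207 had 11.9 CPM in the Aachen cortex, 4.75 in that of Bonn and 12.04 in that of Hamburg, from 9, 14 and 12 UMIs with the estimated counts rounded up in each cell. Its OM values were 0, 0 and 0.579 CPM, which is 1 UMI in all, and its IM values 11.8, 0 and 1.95 CPM. The Aachen IM library was thus as high as the cortex, and the groups overlapped. The log2 difference was -3.58 ± 0.78 with an edgeR adjusted p of 0.0384, and it rests on 46 UMIs. In Hamburg cortex, 7 of the 12 UMIs came from 1 cell. As a ratio of summed CPM the cortex was 6.66 times the medulla, with a 95% interval of 3.31 to 14.5 that covers counting error only and treats UMIs as independent. Within Macrophage_2, which held 33 of the 46 UMIs, the same ratio was 1.36 (0.621 to 3.19). Against the IM alone it was 0.770 (0.343 to 1.89), so the summed IM was not lower, and against the OM 6.64, from 1 OM UMI. Both medullary libraries were below the cortex library in each of the 3 facilities there, but on few UMIs. Cortex and IM had 18.5 and 16.9 CPM in Aachen (5 and 7 UMIs) and 12.8 and 10.7 in Hamburg (4 and 2 UMIs). The Bonn OM and IM had 0 UMIs, where 3 UMIs would give 11.8 and 8.72 CPM, above the 5.53 of the Bonn cortex. Within Macrophage_1 the ratio of cortex to medulla was 44.1 (6.41 to 1899), from 12 UMIs.

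The other 5 receptors did not pass the threshold. Clec12a, the second inhibitory receptor, had cortex levels of 310.2, 159.1 and 191.8 CPM, OM levels of 148.8, 114.2 and 147.5 and IM levels of 203.4, 84.2 and 190.6, each for Aachen, Bonn and Hamburg. It was below the cortex in both medullary libraries of each facility, with a log2 difference of -0.59 ± 0.15 and an edgeR adjusted p of 0.0790. Clec4a3 had -0.41 ± 0.14 (edgeR adjusted p of 0.226) and the same order in each facility. Clec4b1 had -0.24 ± 0.13 and Clec4e -0.40 ± 0.50. Clec4a1 gave 0.05 ± 0.12, with an approximate 95% interval of -0.19 to 0.29. The SE behind it can be off for differences near 0, so this interval is not used to exclude a change.

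**Figure D3:**
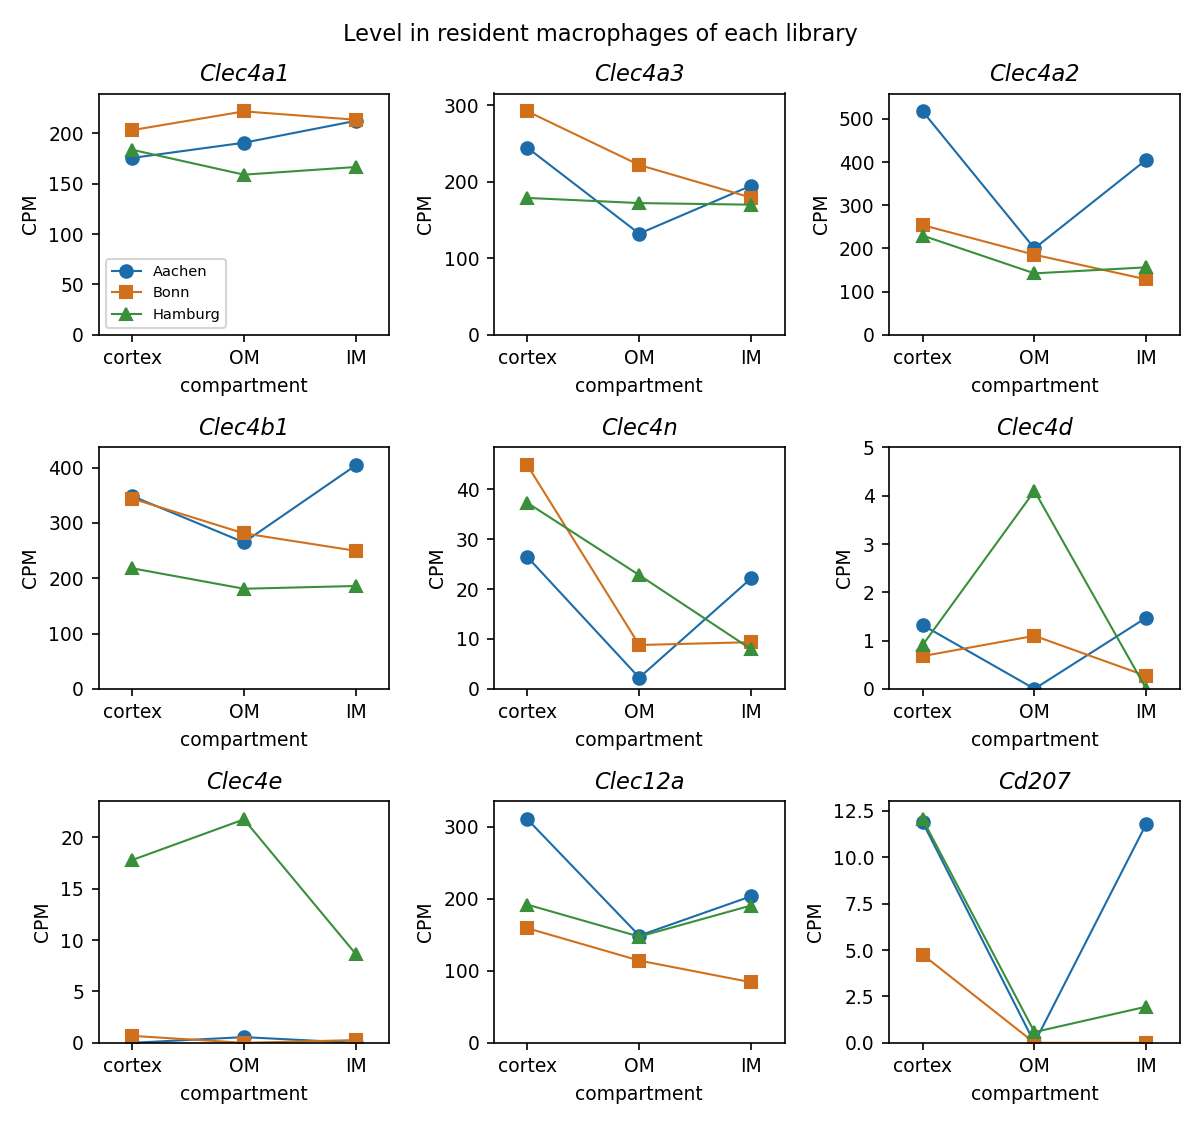
CPM of each gene (y axis, starting at 0) in the resident macrophages of the cortex, OM and IM (x axis), with 1 point per library and lines joining the libraries of a facility. Clec4n is highest in the cortex in all 3 facilities, Cd207 is near 0 in the OM, and Clec4e is above 1 CPM only in Hamburg.

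Taken singly, the OM gave 1 receptor below the cortex, Cd207 (-5.36 ± 1.14, edgeR adjusted p of 0.0409), with 0.322% of all genes lower. Clec4a2 (-0.83 ± 0.20) and Clec4n (-1.77 ± 0.45) had edgeR adjusted p of 0.0703 and 0.0956 there. For the IM against the cortex, edgeR called 0 of the 8 receptors and DESeq2 0, where 0.196% of all genes changed. At an unadjusted edgeR p under 0.05 were 5 receptors and 623 of 8687 genes. Clec4n had -1.73 ± 0.43 in the IM, close to its value in the OM. Between the OM and the IM, edgeR called 0 of the 8 receptors and 0 of 8687 genes, with 1 receptor and 267 genes at an unadjusted p under 0.05, which is a background of 0.0% called.

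The make-up of the resident macrophages moved with the compartment. Macrophage_2, which had the highest Clec4a2 and Cd207 of the macrophage clusters, made up 55.3% of cortex, 19.5% of OM and 31.5% of IM resident macrophages, but not in the same order at each facility. It was 35.5%, 18.6% and 60.6% in the cortex, OM and IM of Aachen, 83.3%, 32.1% and 10.4% at Bonn and 32.8%, 18.6% and 16.6% at Hamburg. The Aachen IM library, where it was above the cortex, is also the one with Cd207 at the level of the cortex. The part of the cluster make-up in the Cd207 level was not tested. Macrophage_3, in which no Cd207 UMI was found, made up 3.0%, 40.6% and 21.6%. Only Bonn had cells of this cluster in the cortex, where Clec4n was at 55.1 CPM from 7 UMIs in 38 cells, against 4.91 CPM in Bonn OM and 4.60 in Bonn IM. Clec4a2 (299.0, 176.6 and 147.3 CPM in cortex, OM and IM) and Clec4a3 (385.5, 247.7 and 209.4) were also highest in this cortex library. Clec4a1 (110.2, 211.0 and 253.2 CPM), Clec4b1 (133.8, 245.3 and 269.3) and Clec12a (31.5, 78.5 and 57.5) were lowest in it. The clusters were therefore also compared singly. Kidney tubule markers (Kap, Umod, Fxyd2, Aqp1, Slc12a1, Slc34a1, Miox and Aqp2) also moved with the compartment, at 0.245 to 0.436 UMIs per 10000 in cortex libraries, 2.73 to 4.51 in OM and 0.678 to 7.88 in IM libraries. B cell markers were at 1.06 to 9.52 UMIs per 10000, highest in the Bonn cortex, and without the 1160 cells with lymphocyte marker UMIs edgeR called 2 receptors. The part of the tubule markers in the results was not tested.

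Within Macrophage_1, 2 of the 6 receptors tested were lower in the medulla, against 0.244% of the 6978 genes tested. Clec4n had cortex levels of 19.97, 59.65 and 36.2 CPM at Aachen, Bonn and Hamburg, OM levels of 0, 0 and 12.8 and IM levels of 9.11, 6.40 and 7.15. All cortex libraries were above all medulla libraries, and the log2 difference was -2.37 ± 0.51 (edgeR adjusted p of 0.0176), although Bonn cortex has only 24 of these cells and 6 Clec4n UMIs. Clec4a2 had cortex levels of 472.6, 248.5 and 174.8 CPM, OM levels of 178.7, 109.5 and 106.5 and IM levels of 318.8, 105.4 and 113.4, with -0.93 ± 0.17 (edgeR adjusted p of 0.00426). It was lower in both medullary libraries of each facility. Cd207 did not pass the filter in this cluster, where 11 of its 12 UMIs were from the cortex, 0 from the OM and 1 from the IM. Of the 11 cortex UMIs, 7 came from 1 Hamburg cell and 4 from 3 Aachen cells, with 0 in the Bonn cortex. edgeR called 0 receptors here without the facility block, and DESeq2 called 1.

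Within Macrophage_2, edgeR called 0 of the 6 receptors tested and DESeq2 0, where 0.02% of the 4989 genes tested changed. An unadjusted p under 0.05 from edgeR was reached by 2 receptors and 254 genes. Clec4a2 was again lower in both medullary libraries of each facility, with cortex levels of 600.1, 261.3 and 348.1 CPM, OM levels of 318.3, 251.6 and 261.6, IM levels of 454.9, 209.2 and 316.3, and a log2 difference of -0.36 ± 0.14 (edgeR adjusted p of 0.717). Clec4n had cortex levels of 33.3, 45.45 and 22.3 CPM, OM levels of 9.95, 23.6 and 37.55 and IM levels of 29.0, 46.5 and 16.4. These groups overlapped, and the log2 difference was -0.24 ± 0.31, with a 95% interval of -0.86 to 0.37. The difference between the clusters was tested itself, a test added after the values had been seen. Clec4n fell by 2.12 ± 0.61 more on the log2 scale in Macrophage_1 than in Macrophage_2 (unadjusted p of 0.00132 from edgeR), and Clec4a2 by 0.56 ± 0.22, but edgeR called 0 of the 6 receptors and 0 of 6111 genes, with 3 receptors and 238 genes at an unadjusted p under 0.05, a background of 0.0% called.

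**Figure D4:**
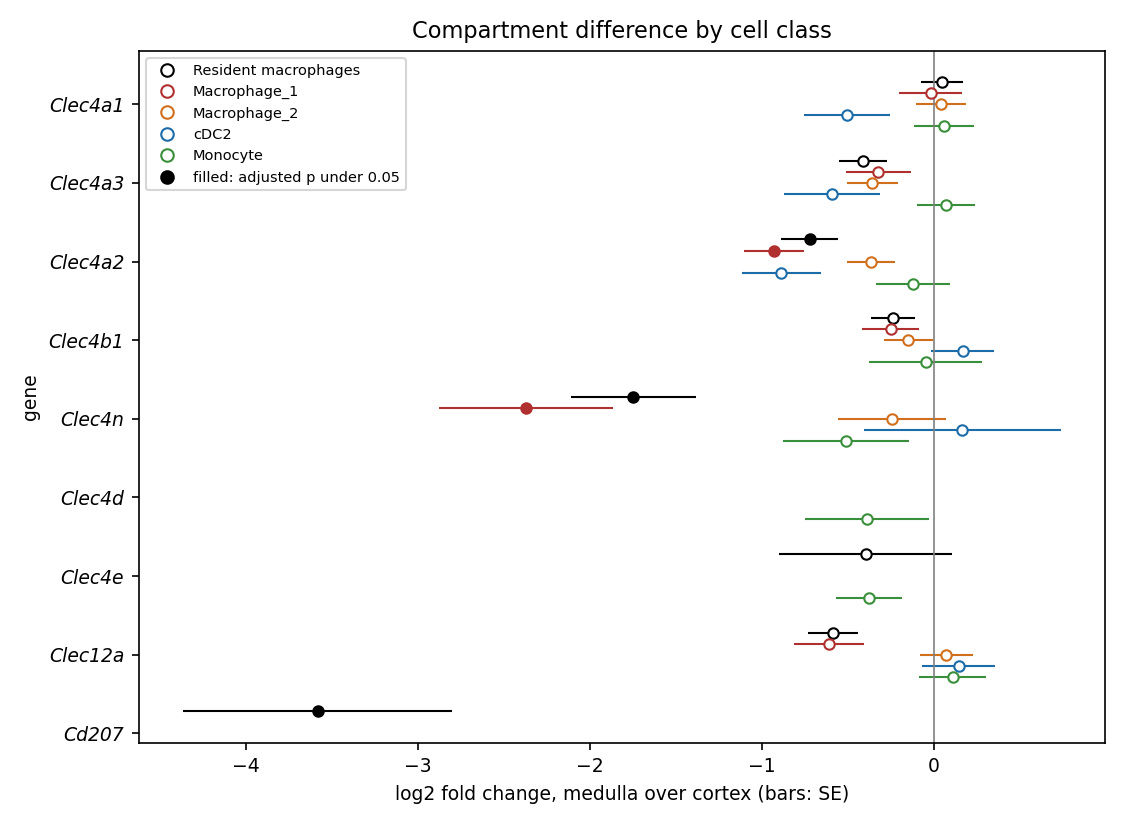
Log2 fold change of medulla over cortex (x axis, bars are 1 SE) for each gene in 5 cell classes, filled where the edgeR adjusted p is under 0.05. Filled points are Clec4n and Clec4a2 in resident macrophages and Macrophage_1, and Cd207 in resident macrophages, and a gene without a point in a class did not pass the filter there.

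In 5 other classes of myeloid cells no receptor was called, and neutrophils, pDC and Macrophage_3 were not tested between compartments. In cDC2, edgeR called 0 of the 6 receptors tested and DESeq2 0, where 0.304% of 4935 genes changed. There 2 receptors and 249 genes had an unadjusted edgeR p under 0.05. Clec4a2 in cDC2 had cortex levels of 315.3, 122.7 and 29.6 CPM, OM levels of 83.0, 74.9 and 30.9 and IM levels of 104.1, 63.35 and 17.9. The mean of the medullary values was below the cortex in 3 of 3 facilities (-0.89 ± 0.23, edgeR adjusted p of 0.147), and Clec4n had 0.17 ± 0.57. The 19 Clec4n UMIs of Hamburg IM cDC2 came from 1 of 75 cells, and this library also enters the contrast with resident macrophages below. In monocytes edgeR called 0 of 8 receptors, where 0.332% of 6029 genes changed, with 0 receptors and 228 genes at an unadjusted p under 0.05. Clec4e in monocytes was at -0.38 ± 0.19, and Clec4a1 and Clec4a3 were at 0.06 ± 0.17 and 0.07 ± 0.17. In Isg+_Macrophage and Malat+_Macrophage edgeR called 0 of 6 and 0 of 5 receptors, where 0.107% and 0.0587% of genes changed. Its unadjusted p was under 0.05 for 0 and 1 receptors, and for 116 of 1876 and 182 of 3407 genes. In cDC1 edgeR called 0 of 1 receptor (Clec12a, -0.07 ± 0.19), where 0.0634% of genes changed. DESeq2 was not run on these and on monocytes. The effect in resident macrophages minus that in cDC2 was called for 0 of 7 receptors by edgeR and by DESeq2. By edgeR 0.0221% of 9064 genes differed. At an unadjusted edgeR p under 0.05 were 466 genes and 3 receptors (Clec4n -1.94 ± 0.71, Clec4e -3.57 ± 1.14 and Clec12a -0.73 ± 0.26). Clec4e did not pass the filter in cDC2 alone. Its Hamburg cDC2 UMIs were 22 in 4 of 160 OM cells, 16 in 3 of 75 IM cells and 1 in the cortex.

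The shares of cells with a UMI were compared after each cell had been thinned to 500 UMIs, which left out 222 of the 5367 resident macrophages. The Clec4a2 share was 15.8% ± 5.54 (SD, n = 3 libraries) in cortex, 8.34% ± 2.26 in OM and 10.6% ± 5.55 in IM libraries, and it was lower in the medulla in 3 of 3 facilities (exact permutation test within facilities, two-sided p of 0.0741, Benjamini-Hochberg over the 9 genes 0.20). The unthinned shares were 54.3%, 35.2% and 38.8%. The Clec4n share was 1.87% ± 0.73, 0.702% ± 0.94 and 0.519% ± 0.165, lower in 3 of 3 facilities, with the smallest exact permutation p that the 27 arrangements allow (0.0370, adjusted 0.20). None of the 9 shares passed after adjustment. In T and B cells the thinned Clec4n share was 0 in all 9 libraries and the thinned Clec4a2 share 0% to 0.843%, and their median depth was 645 to 2996 UMIs against 783 to 4735 in resident macrophages.

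Clec4e differed by facility more than by compartment. In the resident macrophages of Hamburg it was at 17.8, 21.8 and 8.66 CPM in cortex, OM and IM, and in those of Aachen and Bonn at 0 to 0.678. Over all facilities Isg+_Macrophage held 56 Clec4e UMIs, against 5 in Macrophage_1, 3 in Macrophage_2 and 2 in Macrophage_3, with 155.3 CPM in Hamburg and no UMI in 111 Aachen and 53 Bonn cells. The Hamburg UMIs came from 4 of 22 cells in the cortex, 4 of 58 in the OM and 2 of 29 in the IM. In monocytes Clec4e was at 283.0, 255.3 and 149.5 CPM in the cortex, OM and IM of Aachen. Bonn monocytes had 42.8, 62.3 and 84.2 CPM and Hamburg monocytes 636.2, 331.6 and 419.0, so the facilities did not overlap. Il1b, a cytokine gene downstream of Syk and Card9, was also highest in Hamburg monocytes (191.7, 166.9 and 1131 CPM in Aachen, Bonn and Hamburg) and in Hamburg Isg+_Macrophage (203.2, 194.0 and 1664). It was highest in Hamburg in cDC2 and in Macrophage_1, 2 and 3 as well, where Clec4e was low. In neutrophils neither order held, with Clec4e highest in Aachen and Il1b highest in Bonn (8874 CPM). The facility cannot be told apart from the mice, the handling and the library preparation at each site.

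**Figure D5:**
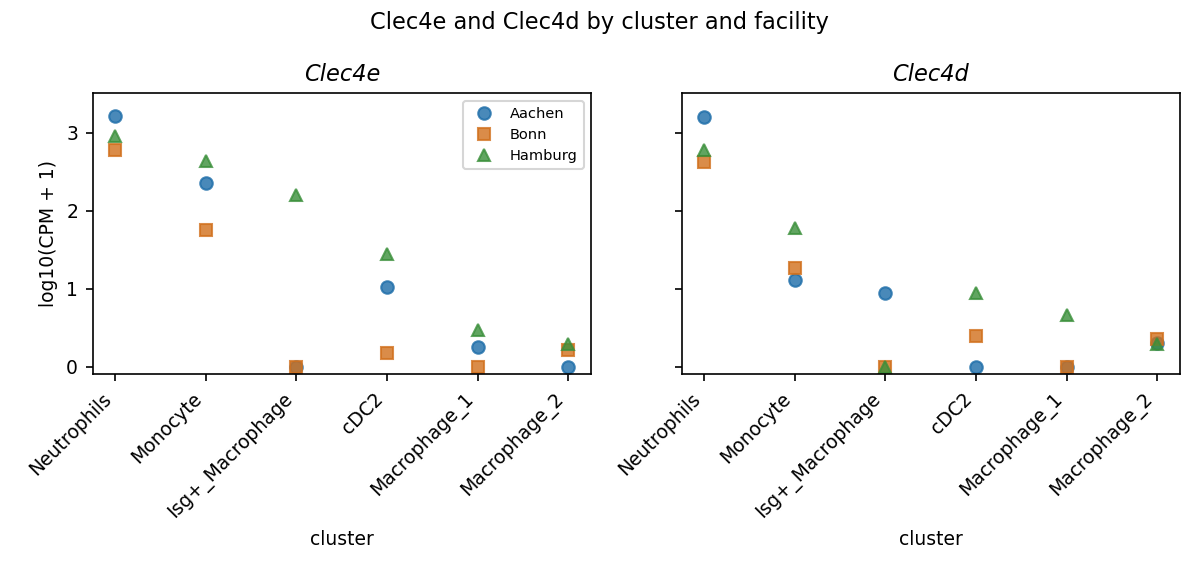
Clec4e (left) and Clec4d (right) as log10(CPM + 1) in 6 clusters, 1 point per facility. Neutrophils are highest for both genes, and Clec4e in Isg+_Macrophage has UMIs only in Hamburg.

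The signalling genes of these receptors had a median compartment difference near that of all genes. Of 33 listed genes 32 were tested in resident macrophages. In the medulla 1 was lower and 0 were higher, where 0.599% of all genes tested were lower and 0.645% higher. The list's median log2 difference was 0.00 against 0.01 for all genes. The lower one was Fgr, a Src family kinase (-1.13 ± 0.24, edgeR adjusted p of 0.0361). Fcer1g, the adaptor of the activating receptors, had 0.11 ± 0.11, Syk -0.19 ± 0.13, Card9 -0.38 ± 0.25 and the phosphatase Ptpn6, which binds inhibitory tails, -0.21 ± 0.12. None of these 4 passed the threshold.

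Among other C-type lectins the called genes were higher in the medulla. Of 29 listed genes that the table holds, only 10 were tested, and 3 were higher in the medulla and 0 lower, where 0.645% of all genes were higher. The 3 were Asgr2, a subunit of the asialoglycoprotein receptor (2.33 ± 0.36, edgeR adjusted p of 0.00951), the mannose receptor Mrc1 (0.97 ± 0.18, edgeR adjusted p of 0.0175) and the galactose lectin Mgl2 (0.81 ± 0.18, edgeR adjusted p of 0.0447). Of the 10 differences 3 were negative, and without Hamburg 0 genes were called and without Bonn 1. Clec10a had 1.02 ± 0.29 with an edgeR adjusted p of 0.133, and Cd209a -0.08 ± 0.31. The list's median was 0.25 against 0.01 over all genes. This list too was chosen with earlier results of these data known, so its share is a description.

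The genes most like each receptor over the clusters were found by Pearson r of log2(CPM + 10) over 20 clusters among 9534 genes, as a description, since the clusters share libraries and differ in depth. Clec4a1 and Clec4a3 were each other's nearest (r = 0.993). Clec4d was nearest to the neutrophil receptor Trem1 (r = 0.999) and Clec4e to Gm31814 and Msrb1 (0.988 and 0.987). Clec4a2 was nearest to Cd302 (0.972) and Sirpa (0.971), Clec4b1 to F11r (0.963) and Mgl2 among its first 3 (0.954), Clec4n to I830077J02Rik (0.942) and Clec12a to Gm46224 (0.963). Cd207 was below the level asked of a gene, and its nearest was Adora3 with r = 0.796.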

How the data were processed

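Cell Ranger, Seurat and the mm10 build are named in the submitters' processing notes. According to the methods, cells were retained at 200 to 4000 detected genes and no more than 20% mitochondrial reads. The authors deposited 1 table of estimated counts (UMIs) per cell, with compartment, cluster and facility. Nonzero values are whole in Aachen and Bonn, but only 0.118% are in Hamburg. Sums were rounded to whole numbers for the tests. No doublet caller was run. One alternative dropped the 1160 resident macrophages that held at least 2 lymphocyte marker UMIs.

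UMIs were summed per facility, compartment and cell class (at least 10 cells) and fitted with edgeR 4.0.16 (TMM, filterByExpr, quasi-likelihood) in R 4.3.3, with facility as a block, Benjamini-Hochberg adjustment and a threshold of 0.05. DESeq2 1.42.0 was an alternative. The SE of an edgeR log2 difference was taken from its test, as the absolute difference over the square root of F. It is approximate and can be off for differences near 0. Clec4a1 in monocytes had an SE of 0.48 for the OM against the cortex and 0.20 for the IM. Intervals of log2 differences are 95% normal intervals from this SE, and intervals of UMI ratios cover counting error only. The facility paired the libraries: the deviations of libraries of the same facility correlated at 0.785 to 0.892 (9 pairs), those of different facilities at -0.788 to 0.207 (27 pairs, 4876 genes). The test was checked on simulated counts. Levels by cluster need 20 cells in a facility. The genes and lists were chosen with earlier results of these data known. Named genes are the receptors, 7 fixed genes of the signalling and lectin lists, list genes past the threshold, and up to 3 genes most like each receptor. Il1b was chosen after its values were seen. The summed resident macrophage marker list is not reported here, and 3 complement genes were summed in its place.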

Additional observations from a re-analysis of the deposited data

How the results depend on the processing

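Receptors in resident macrophages kept their direction more often than their call. Over 21 alternatives for the medulla against the cortex, Cd207 had a value in 18, all negative (-5.02 to -2.95) and called in 7. Clec4n had a value in 20, all negative (-2.35 to -1.32) and called in 9, and Clec4a2 was negative in all 21 (-0.86 to -0.59) and called in 8. The number of receptors called was 1 with DESeq2 (Cd207), 0 without the replicate block, 0 with cells thinned to 500 UMIs and 0 with Malat+_Macrophage added. With a facility or library left out it was 0 to 4: 0 without Hamburg and without the Bonn cortex, Bonn IM, Hamburg cortex or Hamburg IM library, 1 without Bonn and without the Bonn OM, Aachen cortex, Aachen OM or Hamburg OM library, and 4 without Aachen IM. Genes called (108) became 48 with DESeq2, 0 without the block, 382 without the filter, 35 thinned, 68 with Malat+_Macrophage, and 6 to 262 with a facility or library left out. OM receptors called (1) became 0 without the block, thinned and with Malat+_Macrophage, 4 without the filter, 3 without Isg+_Macrophage and 0 to 4 with one left out. IM receptors called (0) became 2 without the filter and 0 to 3 with one left out. Macrophage_1 receptors called (2) became 1 with DESeq2, 0 without the block and 0 to 1 with a facility left out. The contrast with cDC2 (0) became 1 without the filter. The signalling list (1) gave 0 to 3 and the other lectins (3) gave 0 to 3 with a facility left out. The fit without the replicate block changed no other call.

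Small values turned sign. For Clec4a1 in resident macrophages, leaving out a facility or library gave -0.043 to 0.179 for the medulla and -0.0897 to 0.146 for the OM, where DESeq2 gave -0.0036 and added Malat+_Macrophage -0.0186. Thinned, Clec4b1 was 0.10 for the medulla, 0.0177 for the OM and 0.18 for the IM. Clec4a1 in Macrophage_1 was 0.0273 without the block, 0.013 without the filter and -0.032 to 0.0141 with a facility left out, and in Macrophage_2 -0.00274 to 0.0987. Clec12a in Macrophage_2 was -0.0167 without the block and -0.102 to 0.31 with a facility left out. In cDC2, Clec4n was -0.28 with DESeq2, and leaving out a facility gave -0.0119 to 0.242 for Clec4b1 and -0.0417 to 0.225 for Clec12a. In the contrast of resident macrophages with cDC2 it gave -0.0302 to 0.342 for Clec4a2 and -0.809 to 0.428 for Clec4a3. The Clec4a1 share changed by -1.19 to 0.0042 points with a facility left out, and unthinned the Clec4d and Clec4e shares changed by 0.0529 and -0.596 points. The cause of these changes was not tested.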

Other observations

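Some lymphocyte clusters carried the macrophage receptors in single facilities. In the 21 Bonn cells of B_cell_3, Clec4b1 stood at 160.9 CPM and Clec4a3 at 128.7, against 0 and 22.0 CPM in the 225 Hamburg cells of the same cluster. Malat+_T_cell had Clec4a2 at 122.3 CPM in 39 Aachen cells, 7.41 in 58 Bonn cells and 0 in 333 Hamburg cells. Over all facilities these genes had 7 to 12 UMIs in these clusters.

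Proliferating cells (Prolif._cell) carried several of the macrophage receptors, with 123.4 ± 65.4 CPM of Clec4b1 (SD, n = 3 facilities), 101.9 ± 50.6 of Clec12a and 70.3 ± 50.9 of Clec4a2, and 1 Cd207 UMI. In monocytes of the OM against the IM, Clec4d had a log2 difference of -1.30 ± 0.43 and an edgeR adjusted p of 0.833, with 36.1 CPM in the OM and 94.0 in the IM of Hamburg and 6.92 and 17.3 CPM in Bonn, while the 29 OM and 32 IM monocytes of Aachen had 0 Clec4d UMIs.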
